A study of Mus musculus with 4 samples.

Results

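Homeobox genes encode transcription factors that bind DNA through a conserved fold, the homeodomain, and many of them assign position to mesoderm during development. The 7 genes described here were grouped as homeobox factors of somatic mesoderm and body wall, a label that does not give the main role of each. They are the paired-related genes Prrx1 and Prrx2, the engrailed gene En1, the empty spiracles gene Emx2, the sine oculis gene Six2, and the somite genes Meox1 and Meox2. They were taken by name, each as the row of the deposited table whose platform annotation gives that gene symbol and no other. All 7 had exactly 1 such row, out of 19938 genes with a row of this kind. Prrx1 and Prrx2 act together in the mesenchyme of limb, body wall and face, and Prrx1 is widely used to mark connective tissue fibroblasts. En1 patterns the limb and marks a fibroblast lineage of the back skin. Emx2 is needed for the urogenital tract and the shoulder blade, Six2 maintains nephron progenitors of the kidney, and Meox1 and Meox2 are expressed in somites and are required for the axial skeleton, with Meox2 also acting in limb muscle and vessels.

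The study compared the serous covering of the omentum (visceral mesothelium) with the lining of the abdominal wall (parietal mesothelium), using 4 Affymetrix Mouse Gene 1.0 ST arrays, 2 for each tissue. All samples came from untreated adult mice of the c57bl/6 background and the genotype Wt1-cre;Rosa26ReYFP, in which Cre recombinase made in cells that express Wt1 switches on a yellow fluorescent reporter. Parietal mesothelium was teased off the muscle beneath it and RNA was taken from the native tissue of both sites, so that other cell types could contribute, although by the reporter the study judged nearly all of this input to be mesothelial. Replicates are labelled as biological, but neither the animal behind an array nor any pooling of animals is given. The p-values therefore reflect variation between arrays of the same tissue, which cannot be equated with variation between animals. Of 20 mesothelial genes, 18 had a mean signal above 6.75, the scale for dim signals explained below, while Calb2 and Krt5 were under it on all 4 arrays. The uroplakin Upk3b had a log2 signal of 13.59 and 13.65 in visceral and 13.79 and 13.84 in parietal mesothelium, and Wt1 one of 12.26 and 12.39 against 11.54 and 11.42. In bulk RNA, fewer cells of a type and less RNA per cell cannot be told apart.

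Values below are log2 signals after RMA normalization, in which a difference of 1 is a doubling. Each gene has its own probes, so a signal was compared between arrays and not between genes, apart from the rough scale for dim signals that follows. The table carries no detection call. As a scale for dim signals, the 95th percentile of the mean signal of 1015 olfactory receptor genes, which mesothelium is not known to use, was 6.75, and 67.9% of all genes lay above it. Where the mean of the dimmer tissue lay under 6.75, the printed difference may understate the true one and is better read as a lower limit. Of the called genes named below this applied to Emx2, Meox1 and Meox2, and among related genes to Six4, Eya1, Nkx2-9, Mkx, Irx1, Irx5, Sim2, Tbx15, Foxf2 and Hgf, and to the marker genes Cilp, Tnmd, Myl1 and Casq1. Rgs2, named below as a gene most like Prrx2, also had a mean under 6.75 in its dimmer tissue (parietal, 6.14).

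The upstream regions of Emx2, Meox2 and Six2 are shown because the first pair was higher in parietal mesothelium and Six2 lay in the opposite direction. They are the 250 bases before the annotated start in RefSeq (GRCm38.p6), written in the direction of transcription, with the core letters TAAT, bound by many homeodomains, and their complement ATTA in capitals.
Emx2, chr19:59458440-59458689, plus strand: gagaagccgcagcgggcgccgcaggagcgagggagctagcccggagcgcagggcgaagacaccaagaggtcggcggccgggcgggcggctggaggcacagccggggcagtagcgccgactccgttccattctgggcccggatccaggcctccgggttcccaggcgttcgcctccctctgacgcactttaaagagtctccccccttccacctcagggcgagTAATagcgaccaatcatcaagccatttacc
Meox2, chr12:37108290-37108539, plus strand: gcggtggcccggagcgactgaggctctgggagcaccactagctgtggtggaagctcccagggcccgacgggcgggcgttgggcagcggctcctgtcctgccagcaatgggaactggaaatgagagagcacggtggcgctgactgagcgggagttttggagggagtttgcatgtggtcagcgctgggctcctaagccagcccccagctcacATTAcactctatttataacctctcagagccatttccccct
Six2, chr17:85688255-85688504, minus strand: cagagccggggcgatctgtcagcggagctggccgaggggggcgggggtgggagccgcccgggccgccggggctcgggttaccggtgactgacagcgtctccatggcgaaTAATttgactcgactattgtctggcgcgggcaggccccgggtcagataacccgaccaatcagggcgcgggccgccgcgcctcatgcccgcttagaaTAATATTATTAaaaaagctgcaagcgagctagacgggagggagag
On both strands together, counting matches that overlap, the core was found 4 times before Six2 and 1 time each before Emx2 and Meox2. It was also found 4 times in the window of Prrx1 and 0 times in those of Prrx2 and En1. The counts thus did not follow the direction of the difference between the tissues. Among 32851 such RefSeq windows, 54.9% held at least 1 core and 9.62% held 4 or more. The window of Meox2 also holds TTTATA, the complement of TATAAA (1 match, on both strands together, against 12.4% of all windows with at least 1). The window of Six2 has 26 CpG dinucleotides, that of Emx2 24 and that of Meox2 12, against a median of 6 over all windows. Of the Emx2 window, 196 bases lie inside the annotated span of the antisense RNA Emx2os, which was not analysed here. RefSeq windows were found for 6 of the 7 genes, and those of Prrx1 and Prrx2 lie within the span of their own genes and are not printed. The window of En1 lies outside its gene and is not printed either. These matches describe the letters only.

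The arrays of the tissues did not overlap for any of the 7 genes, and 5 of them passed the test, 4 higher in parietal and 1 higher in visceral mesothelium. Non-overlap was common with 2 arrays against 2: it held for 56.3% of all genes, 27.4% higher in parietal (5 of the 7 genes) and 28.9% higher in visceral mesothelium (2 of the 7). The test was limma over all 19938 genes with Benjamini-Hochberg adjustment, and a call required an adjusted p under 0.05 together with a 1.5-fold difference or more. Because 2 arrays a tissue give little information on spread, limma draws each gene's spread towards a value pooled over all genes. Its p-values thus do not rest on the arrays of that gene alone. By this rule 9.6% of all genes were called, with 4.39% on the parietal and 5.22% on the visceral side. Emx2, Meox1, Meox2 and Prrx1 were higher in parietal mesothelium and Prrx2 was higher in visceral mesothelium, whereas En1 and Six2, with folds under 1.5, did not pass. The name of the group, body wall factors, therefore does not describe all of its members here, since the signals of Prrx2 and Six2 lay higher in the omentum. The median log2 difference, visceral minus parietal, was -0.68 over the 7 genes and 0.00 over all genes. The median of the 7 is the value of Prrx1, and these genes were chosen with earlier results of these data known. When limma was instead run over all 35556 rows of the table, only Meox2 and Prrx2 among the 7 genes passed. The adjusted p was then 0.0682 for Prrx1, 0.0681 for Emx2 and 0.108 for Meox1.

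**Figure D1:**
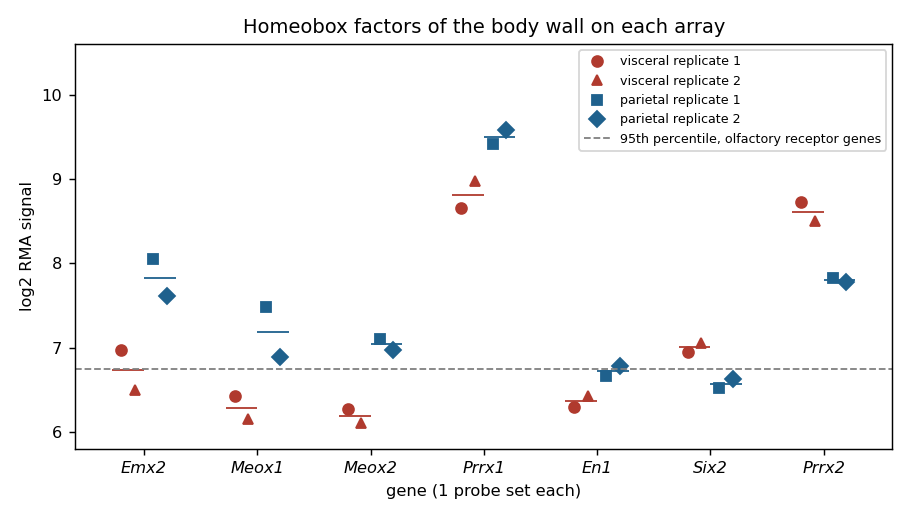
Log2 RMA signal (y axis) of the 7 genes (x axis) on each array, red for visceral and blue for parietal mesothelium, with short lines at the tissue means and a dashed line at 6.75, the 95th percentile of olfactory receptor genes. No gene has overlapping arrays, the blue symbols lie above the red ones for Emx2, Meox1, Meox2, Prrx1 and En1, and signals of different genes are not comparable.

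The paralogs Prrx1 and Prrx2 lay in opposite directions. Prrx1 had a signal of 8.65 and 8.97 on the visceral arrays and of 9.41 and 9.58 on the parietal arrays. Both parietal arrays were thus above both visceral arrays, by at least 0.44. The means were 8.81 ± 0.23 (SD, n = 2 arrays) for visceral and 9.50 ± 0.12 (SD, n = 2) for parietal mesothelium, a difference of 0.68 (standard error 0.13, 95% interval 0.35 to 1.01) or 1.61-fold, with an adjusted p of 0.0240 from limma. This call was lost without visceral replicate 1, at a visceral minus parietal difference of -0.53 (adjusted p = 0.0675 from limma), and without parietal replicate 2, at -0.60 (adjusted p = 0.0637 from limma). Prrx2 had a signal of 8.73 and 8.50 in visceral and of 7.83 and 7.78 in parietal mesothelium. Here the visceral arrays were the higher ones, and the parietal arrays differed from each other by only 0.05. The visceral mean of 8.61 ± 0.17 (SD, n = 2) exceeded the parietal mean of 7.80 ± 0.04 (SD, n = 2) by 0.81 (standard error 0.11, 95% interval 0.54 to 1.07) or 1.75-fold, with an adjusted p of 0.00632 from limma. Prrx2 was also called on leaving out each array in turn, with differences of 0.69 to 0.93. Both genes were above 6.75 on all 4 arrays.

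Within each array, the Prrx1 minus Prrx2 difference was -0.08 and 0.47 on the visceral arrays and 1.58 and 1.80 on the parietal arrays. The pair thus shifted by 1.49 between the tissues (parietal minus visceral), with no overlap of the arrays. A two-sided exact permutation test over arrays gave p = 0.333, which is the smallest p that 2 arrays against 2 allow. Because each gene was free of overlap and in opposite directions, this outcome was already fixed and adds no evidence. The absolute offset of this measure has no meaning, because the genes have different probes, and only its shift between tissues was compared.

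The somite factors Meox1 and Meox2 were both higher in parietal mesothelium. Meox2 had a signal of 6.27 and 6.11 in visceral and of 7.10 and 6.97 in parietal mesothelium. The gap of 0.70 between the nearest arrays of the tissues was wider than the 0.17 and 0.13 that separated arrays of the same tissue. Means of 6.19 ± 0.12 (SD, n = 2) and 7.04 ± 0.09 (SD, n = 2) differed by 0.85 (standard error 0.10, 95% interval 0.60 to 1.10), or 1.80-fold, with the lowest adjusted p of the 7 genes, 0.00442 from limma. Meox2 was called on leaving out each array as well, with visceral minus parietal differences of -0.93 to -0.77. Meox1 had a signal of 6.42 and 6.15 in visceral and of 7.48 and 6.89 in parietal mesothelium. Its parietal arrays lay 0.59 apart, more than the gap of 0.46 between the tissues. The means were 6.29 ± 0.19 (SD, n = 2) and 7.18 ± 0.42 (SD, n = 2), a difference of 0.89 (standard error 0.21, 95% interval 0.37 to 1.41) or 1.86-fold, with an adjusted p of 0.0443 from limma. This call did not hold without visceral replicate 1 (visceral minus parietal difference -1.03, adjusted p = 0.0861 from limma), without visceral replicate 2 (-0.76, adjusted p = 0.170) or without parietal replicate 1 (-0.60, adjusted p = 0.0502). It also missed the threshold after quantile normalization (-0.87, adjusted p = 0.0563) and cyclic loess (-0.86, adjusted p = 0.0569). The visceral arrays of both genes lay under 6.75 and their parietal arrays above it. The Meox1 minus Meox2 difference was 0.15 and 0.05 in visceral and 0.37 and -0.09 in parietal mesothelium, so that its arrays overlapped between tissues (shift of 0.04, parietal minus visceral, exact permutation p = 1). Adjusted over the 2 pairs compared, the exact permutation p was 0.667 for Prrx1 and Prrx2 and 1 for Meox1 and Meox2.

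Emx2 was higher in parietal mesothelium. Its signal was 6.97 and 6.50 in visceral and 8.05 and 7.61 in parietal mesothelium. In each tissue replicate 1 was above replicate 2, by 0.47 in visceral and 0.44 in parietal mesothelium, and the nearest arrays of the tissues were 0.64 apart. Visceral replicate 2 was under 6.75 and the other arrays were above it. The means of 6.73 ± 0.33 (SD, n = 2) and 7.83 ± 0.31 (SD, n = 2) differed by 1.09 (standard error 0.21, 95% interval 0.58 to 1.61), or 2.14-fold, with an adjusted p of 0.0222 from limma. Of all genes 4.30% had a larger difference in either direction. Without visceral replicate 2 the visceral minus parietal difference was -0.86 and Emx2 was not called (adjusted p = 0.0782 from limma).

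En1 and Six2 differed by less than the fold of 1.5 that a call required. En1 had a signal of 6.30 and 6.43 in visceral and of 6.66 and 6.79 in parietal mesothelium. All but the highest of these values were under 6.75, and 93.1% of the olfactory receptor genes had a lower mean than En1. The parietal mean exceeded the visceral mean by 0.36 (standard error 0.10, 95% interval 0.12 to 0.60), or 1.28-fold, and the adjusted p was 0.0651 from limma. Six2 had a signal of 6.95 and 7.05 in visceral and of 6.51 and 6.63 in parietal mesothelium. The visceral arrays were above 6.75 and the parietal arrays below it. The visceral mean was higher by 0.43 (standard error 0.09, 95% interval 0.20 to 0.65), or 1.35-fold. The adjusted p of Six2 was 0.0326 from limma, so that it failed only the requirement on the fold. 

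**Figure D2:**
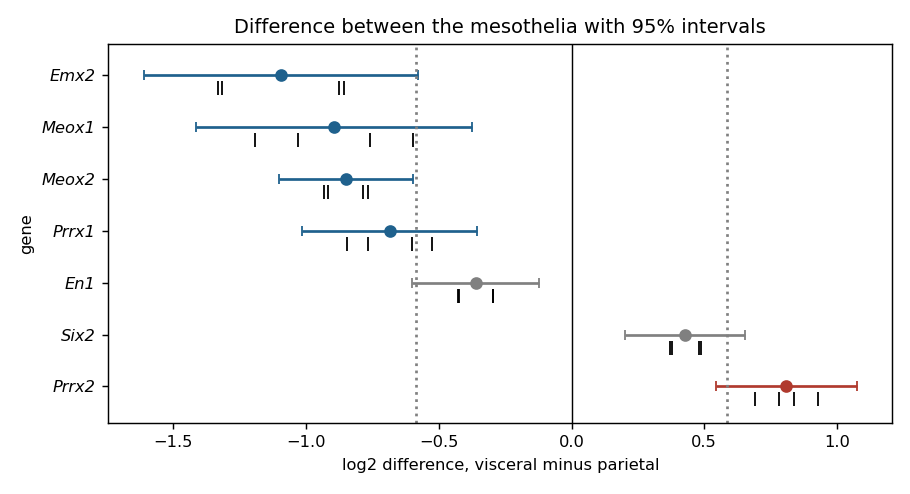
The x axis gives the visceral minus parietal difference in log2 signal and the y axis the 7 genes, with 95% intervals from limma. Blue genes were called on the parietal and red genes on the visceral side, and grey genes were not called. Dotted lines mark a fold of 1.5 and short black ticks the difference on leaving out each array in turn; no tick crosses 0, and those of Prrx1 reach -0.53.

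The genes whose profile over the 4 arrays was most like that of each called gene were found by the root mean square distance of log2 values, each gene centred on its own mean. Crim1 was nearest to Prrx1 at a distance of 0.01, followed by Mb21d2 and Ccdc88c at 0.01 and 0.03. Nearest to Prrx2 were Foxf2 at 0.03, and Stk17b and Rgs2 at 0.04 each. The keratin Krt18 (0.02), Btg2 (0.03) and Oasl1 (0.06) were nearest to Emx2. For Meox1 they were the collagen chain Col6a3 (0.03), Ypel2 (0.05) and Cda (0.05), and for Meox2 Ctnnal1 (0.01), Amigo2 (0.02) and the WNT receptor Fzd7 (0.04). Within a distance of 0.1 lay 115 genes for Prrx2, 92 for Meox2 and 86 for Prrx1, but 12 for Meox1 and 9 for Emx2. Among the 7 genes themselves, Emx2 and Meox1 were the closest pair (0.14) and Prrx2 and Emx2 the farthest apart (0.97). With 4 arrays in 2 tissues, this measure is a description of shape and shared size of difference.

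Relatives of these factors mostly did not pass the test. Of 116 other measured homeobox genes outside the HOX clusters, 13 were called, a share of 11.2% that is near the 9.6% of all genes. This set leaves out the MEIS, PBX, PKNOX and TGIF genes, which also have a homeodomain and are counted with the cofactors below. Of the 13 called genes, 8 were higher in the parietal and 5 in the visceral arrays, and the median difference of the 116 genes was -0.04. Of 20 paired-type relatives of Prrx1, 2 were called and both were higher in parietal mesothelium. Pitx1, a hindlimb factor, had a signal of 7.35 and 7.12 in visceral and of 8.30 and 8.18 in parietal mesothelium (visceral minus parietal -1.004, adjusted p = 0.00345 from limma). Alx4, which acts in limb and skull mesenchyme, differed by -0.70 (adjusted p = 0.00664 from limma). Of 48 engrailed, empty spiracles and NK-type relatives, 2 were higher in visceral mesothelium, Barx1 (3.02) and Nkx2-9 (2.08), and 1 in parietal mesothelium, Nkx6-2 (-0.74). Without visceral replicate 1 the calls on this list numbered 5 instead of 3. The direct paralogs of En1 and Emx2 were not called, with 0.02 for En2 and -0.06 for Emx1. Of 44 genes of the LIM, POU, CUT, IRX and zinc finger homeobox classes, 3 were higher in visceral mesothelium, Isl1 (3.92), Zeb2 (2.19) and Tshz2 (1.57). The 4 that were higher in parietal mesothelium were the tendon factor Mkx (-1.21), Irx1 (-0.75), Irx5 (-0.67) and Tshz3 (-0.61).

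Six2 belongs to a network in which Six2 and its relatives bind DNA and EYA proteins join them as coactivators, with DACH proteins as further partners. Of 10 measured genes of this network other than Six2, 4 were called, 2 in each direction. Eya2 had a signal of 9.67 and 9.75 in visceral and of 7.99 and 8.12 in parietal mesothelium, a visceral excess of 1.65 (adjusted p = 0.000316 from limma). Eya4 had a visceral excess of 1.71 (adjusted p = 0.000889 from limma). In the opposite direction, Six4 had a signal of 5.58 and 5.96 in visceral and of 6.62 and 7.09 in parietal mesothelium (-1.09, adjusted p = 0.0189 from limma), and Eya1 differed by -1.02 (adjusted p = 0.0379 from limma). Six4 and Eya1 are both expressed in skeletal muscle, but the genes of this network were not compared by muscle expression. The part of muscle in either direction was not tested. The network thus held both directions, with a median of -0.06. Its called genes numbered 2 instead of 4 without visceral replicate 1, and likewise 2 when limma was run over every deposited row.

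Of 18 cofactors of homeodomain proteins, the PBX, MEIS, TLE and SRF list, 3 were called (16.7%, against 9.6% of all genes). They were higher in visceral mesothelium: Ldb2, which bridges LIM factors (1.03), Meis1 (0.64) and Pbx3 (0.60), the last pair being partners that sharpen DNA binding. The median of the list was 0.20. This count rested on single arrays, since 1 gene was called without visceral replicate 2 and 1 without parietal replicate 2. Srf, a muscle gene activator whose DNA binding Prrx1 enhances, had signals of 9.43 and 9.35 in visceral and of 9.25 and 9.20 in parietal mesothelium and was not called.

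Of 36 somite, limb and body wall factors outside the homeobox family, 10 were called, 4 on the parietal and 6 on the visceral side, and the median was 0.00. The parietal ones were Sim2 (-3.67) and Tbx15 (-2.26), both with visceral means under 6.75 (6.49 and 5.81), and Twist1 (-1.13) and Tbx18 (-0.77). Tbx15 and Tbx18 are T-box factors of limb and body wall mesenchyme, and Twist1 is a mesenchymal factor of limb and head. Among the visceral ones were Tbx4 (1.47), which acts in the hindlimb and lung, Nr2f2 (1.08), Osr1 (1.01), of early kidney and gut mesenchyme, and the forkhead factor Foxf2 (0.76). The somite gene Tcf15 (-0.08) of this list did not pass, nor did Pax3 (-0.19) and Pax7 (-0.02), which belong to the paired-type homeobox list. They were named after their values were seen, as factors known to act beside Meox1 and Meox2. Of 18 genes placed under or beside the 7 factors by developmental studies, 6 were called, 3 in each direction. The growth factors Fgf10 (1.15) and Hgf (1.06) and the WNT ligand Wnt4 (0.85) were higher in visceral mesothelium. Bmp4 (-0.93), the Hgf receptor Met (-0.86) and Gdnf (-0.70), a growth factor of the developing kidney, were higher in parietal mesothelium.

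**Figure D3:**
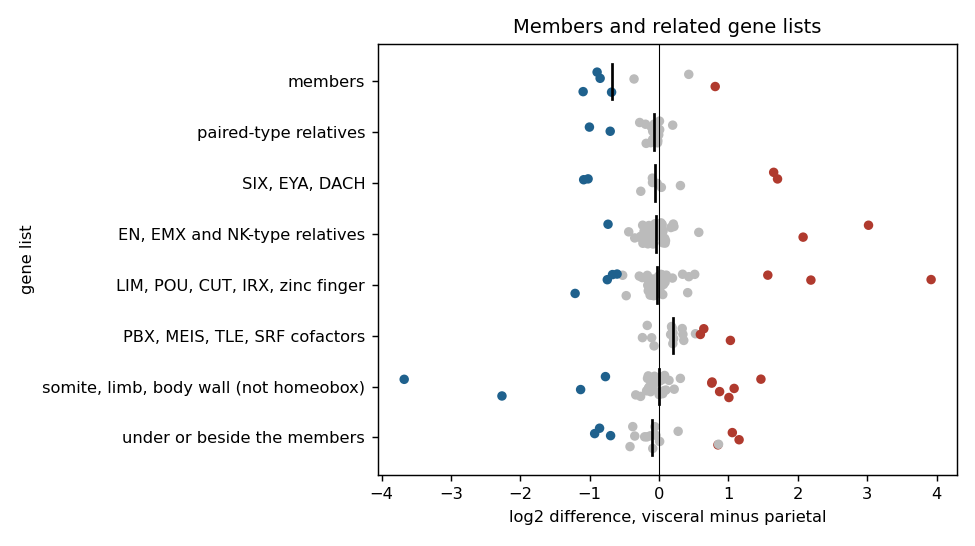
The x axis gives the visceral minus parietal difference in log2 signal of single genes (points) from the 7 factors and 7 related lists (y axis), with calls on the visceral side in red, those on the parietal side in blue, other genes in grey and a black line at each median. The medians of the related lists lie between -0.11 and 0.20, while that of the 7 genes lies at -0.68, the value of Prrx1.

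Markers of several cell types differed between the same arrays. All 24 genes of skeletal muscle fibres were called higher in parietal mesothelium, such as Myl1, Acta1 and Casq1. Their summed linear signal was 4501 to 4506 on the visceral arrays and 91404 on parietal replicate 1 and 118850 on parietal replicate 2. Of 12 genes of satellite cells and myoblasts, 2 were called on the parietal side and 1 on the visceral side, and the summed signal ran from 1786 to 1942 in visceral and from 2619 to 2919 in parietal mesothelium. Of 14 tendon and fascia genes, 5 were higher in parietal mesothelium, among them Cilp (-3.82), Tnmd (-3.02) and Thbs4 (-4.24), and none in visceral mesothelium. The sum was 8771 to 9673 in visceral and 19161 to 22387 in parietal mesothelium, and it was higher on parietal replicate 1. One gene, Mkx, is on this list and on that of homeobox relatives.

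Fibroblast genes, a list of interest because Prrx1 marks fibroblasts, split between the tissues. Of 20 genes, 7 were called higher in parietal mesothelium, such as Cygb (-1.36), and 4 higher in visceral mesothelium, such as Mfap5 (1.16) and Pdgfrb (1.02). Their summed signal was 74862 to 76063 in visceral and 74847 to 81357 in parietal mesothelium, so that the ranges overlapped. The mesothelial list (20 genes) had 9 parietal calls, such as Msln (-2.14), Krt7 (-1.78) and Ezr (-1.30), and 1 visceral call, Wt1 (0.84), with sums of 66663 to 69200 in visceral and 103030 to 106420 in parietal mesothelium. The macrophage and dendritic cell list (22 genes) had 19 calls, every one higher in visceral mesothelium, with sums of 38737 to 41837 against 8541 to 9958. Of 13 lymphocyte genes, 6 were higher in visceral mesothelium and 9 had a mean at or below 6.75. Of 18 endothelial genes, 2 were higher in parietal mesothelium, Esam (-0.69) and Cdh5 (-0.60), with sums of 4616 to 4949 in visceral and 5784 to 6039 in parietal mesothelium. Of 19 adipocyte genes, 4 were higher in parietal mesothelium, including Slc2a4 (-1.57), which muscle also uses, with sums of 9530 to 9938 in visceral and 10320 to 11194 in parietal mesothelium. Of 9 Schwann cell and nerve genes, 1 was higher in each tissue, Mpzl1 (0.68) in visceral and Ncam1 (-1.34) in parietal mesothelium. The part of these cell types in the differences of the 7 homeobox genes was not tested.

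**Figure D4:**
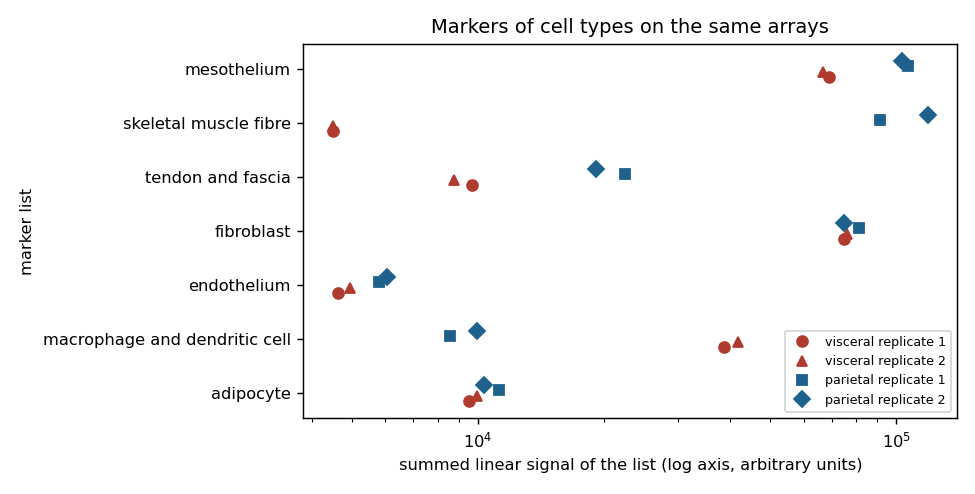
Summed linear signal (x axis, log scale, arbitrary units) of 7 marker lists (y axis) on each array, red for visceral and blue for parietal mesothelium. Skeletal muscle markers lie at 4501 to 4506 on the visceral arrays and at 91404 and 118850 on the parietal arrays, while fibroblast markers lie between 74847 and 81357 on all arrays; sums of different lists are not comparable.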

How the data were processed

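RNA from 2 samples each of omental (visceral) and body wall (parietal) mesothelium was hybridized to Affymetrix Mouse Gene 1.0 ST arrays. The deposited log2 table was produced by the authors with RMA, for which the submitters' processing notes give Partek 6.6; their array annotation is not given in the sources used here. These values entered the analysis without further scaling.

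Rows were named through a platform annotation, with gene identifiers checked in RefSeq (GRCm38.p6): 21789 of 35556 rows had 1 symbol, 1621 several and 12146 none. Each of 19938 genes was represented by its row of highest mean. Scan dates were not used, so batches were not analysed here, and the number of arrays limits the precision.

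Tissues were compared over all genes with limma 3.58.1 in R 4.3.3, without a block. Lists were described by counts and medians. The code was tested on simulated data. Alternatives were the methods' one-way ANOVA, other thresholds, variance priors, normalizations, filters and rows, the replicate number as a block, and removal of single arrays. Genes named are the 7 factors, up to 4 called genes per direction of each related list by adjusted p, the paralogs En2 and Emx1, the 3 genes most like each called factor, and up to 3 genes per marker list by adjusted p; others were chosen after their values were seen. The 7 genes and the lists were chosen with earlier results of these data known.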

Additional observations from a re-analysis of the deposited data

How the results depend on the processing

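No alternative turned the direction of any of the 7 genes. The methods' ANOVA after Benjamini-Hochberg adjustment called 0 genes of 19938, against 1915 by limma and 1582 by the same ANOVA at an unadjusted p under 0.05 and the same fold (adjusted p of 0.176 to 0.354 for the 5 called factors), so that 0 of the 7 genes and 0 of the related lists passed at unchanged differences of -0.68 for Prrx1, 0.81 for Prrx2, -1.09 for Emx2, -0.89 for Meox1 and -0.85 for Meox2. The same differences did not pass at an adjusted p under 0.01 with a fold of at least 2 (0 of the 7 genes, 871 of all genes, 18 of the related lists), nor against a fold of 1.5 by treat (0, 724 and 13). Without adjustment the ANOVA passed Meox2, 1 gene higher in parietal mesothelium, and Prrx2, but not Prrx1 (-0.68), Emx2 (-1.09) or Meox1 (-0.89). With no fold threshold Six2 passed at 0.43, which made 2 of the 7 genes higher in visceral mesothelium. With every deposited row tested, 1 of the 7 genes was called higher in parietal mesothelium, and Prrx1 (-0.68), Emx2 (-1.09) and Meox1 (-0.89) were not called. Meox1 was not called after quantile normalization (-0.87) or cyclic loess (-0.86). Restricting the test to genes above the median signal left 1 parietal call and 22 calls on the related lists, and to genes above the olfactory receptor percentile 2 parietal calls. En1, Meox1 and Meox2 are under both filters, and Emx2 and Six2 under the first, and so had no value there. At the threshold of a fold of at least 2, Prrx1, Prrx2, Meox1 and Meox2 had folds under it. Emx2 had a fold of 2.14 but an adjusted p of 0.0222 from limma. The cause of the losses under the remaining settings was not tested.

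On leaving out each array in turn, visceral minus parietal differences ran from -0.84 to -0.53 for Prrx1, 0.69 to 0.93 for Prrx2, -0.43 to -0.29 for En1, -1.33 to -0.86 for Emx2, 0.37 to 0.49 for Six2, -1.19 to -0.60 for Meox1 and -0.93 to -0.77 for Meox2. The number called higher in parietal mesothelium was then 2 to 3, with 2 without visceral replicate 1 and without visceral replicate 2, and that of all genes 1696 to 2095. The shift of Prrx1 minus Prrx2 ran from -1.77 to -1.22. That of Meox1 minus Meox2 (visceral minus parietal) ran from -0.27 to 0.19 and so had no settled sign. The replicate numbers pair the arrays only by number, and the deviations of same-numbered arrays correlated at 0.27 over all rows and 0.36 over the genes tested. With the number as a replicate block 2008 genes were called, and the same counts of 4 and 1 of the 7 genes at unchanged differences, such as -1.09 for Emx2 and -0.36 for En1. The adjusted p from limma was lower with the block, at 0.00142 for Emx2, 0.00694 for Meox1 and 0.0341 for En1.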
